A study of Homo sapiens with 10 samples.

Results

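The genes described here are SAA1, SAA2 and SAA4, which encode serum amyloid A proteins, LCN2, which encodes lipocalin 2, and HP, which encodes haptoglobin. They are 5 of the 26485 genes listed in the count files, taken by gene symbol. They were chosen by gene name with earlier results of the same comparison known, and SAA2 among them selected on its log2 fold change between the populations, so their values between the populations are a description without a test. The data are bulk RNA-seq of SW480, an established line from a human colorectal adenocarcinoma, grown in medium with 10% serum and sorted by flow cytometry with an antibody to the surface receptor ROBO1. ROBO1pos, which the labels also call SW480-CBC, is the population with the receptor, and ROBO1neg, also SW480-RSC, is the population without it. Each has 5 libraries of polyadenylated RNA, all of the same line with the genotype given as WT and no treatment named. The labels name no gate, sorting day or culture behind a library, so the spread between libraries may be technical. Both populations come from 1 line, and in bulk RNA fewer cells that make a transcript cannot be told apart from less of it per cell.

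SAA1 and SAA2 encode the acute phase serum amyloid A, small apolipoproteins of high-density lipoprotein that the liver releases during inflammation and that intestinal epithelium also makes on contact with microbes. SAA4 encodes a constitutive form made mainly in the liver. Lipocalin 2 is stored in neutrophil granules and secreted by inflamed epithelium, where it binds bacterial siderophores and so withholds iron, and haptoglobin is a liver protein that binds free haemoglobin. SAA1, SAA2 and LCN2 are known as targets of NF-kB and C/EBP factors downstream of interleukin 1, and interleukin 6 with STAT3 adds to the induction of SAA and haptoglobin.

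In GRCh38.p14 the SAA genes lie together on chromosome 11, with SAA1 from 18266264 to 18269967 on the plus strand, SAA2 from 18238236 to 18248668 and SAA4 from 18231355 to 18236802 on the minus strand. A read-through gene, SAA2-SAA4, spans 18231355 to 18248668 and shares exons with both. LCN2 lies on chromosome 9 from 128149453 to 128153453, and HP on chromosome 16 from 72054505 to 72061055, both on the plus strand. The coding sequences of SAA1 and SAA2 were 97.0% identical, with 11 differing bases out of 369. Of these, 9 fell in the 139 coding bases of the last exon and 2 in the 230 bases before it. That exon is printed because reads over it can tell the genes apart, whereas the longest run without a difference was 186 bases. Both stretches are read 5′ to 3′ along the gene from GENCODE transcripts on GRCh38, SAA1 at chr11:18269717-18269855 on the plus strand and SAA2 at chr11:18245377-18245515 on the minus strand, with the bases that differ in capitals.
SAA1: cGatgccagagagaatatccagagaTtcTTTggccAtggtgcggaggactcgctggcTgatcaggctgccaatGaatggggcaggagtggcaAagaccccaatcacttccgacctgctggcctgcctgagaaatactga
SAA2: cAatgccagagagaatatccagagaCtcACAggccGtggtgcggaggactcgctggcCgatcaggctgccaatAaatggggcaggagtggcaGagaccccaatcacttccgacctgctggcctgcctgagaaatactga

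Of all stretches of 50 bases in annotated SAA1 transcripts, 46.6% were also found in transcripts of another gene, against 20.5% for SAA2, 63.4% for SAA4, 11.98% for HP and 0% for LCN2. Without the read-through gene the shares were 18.2% for SAA2 and 0% for SAA4. SAA1 and SAA2 were therefore less certain as separate counts than LCN2. The sources used here give neither the read length nor the counting rule. SAA2-SAA4 itself had 0 counts in all 10 libraries. It has 743 exon bases, and it shares 267 exon bases with SAA2 and 476 with SAA4. A rule that drops reads on shared bases could thus give 0, so this count does not show that the read-through was absent. Such a rule could also take reads from SAA4, of whose 727 exon bases 34.5% lie outside SAA2-SAA4.

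SAA1, SAA2 and LCN2 were close to absent in ROBO1pos and readily counted in every ROBO1neg library, while SAA4 was rare and HP was not detected. Levels are CPM, the counts of a gene scaled to the reads on all genes of its library after TMM normalization, and the libraries held between 23228686 and 29539100 such reads. SAA1, the more abundant acute phase form, was at 0.387, 0.259, 3.64, 1.66 and 0.493 CPM in ROBO1pos replicates 1 to 5, against 41.1, 59.9, 386, 391 and 216 CPM in ROBO1neg replicates 1 to 5. Every ROBO1pos library lay below every ROBO1neg library, and in ROBO1neg the libraries numbered 1 and 2 were far below the other 3. The means were 1.29 ± 1.43 CPM in ROBO1pos and 219 ± 169 CPM in ROBO1neg (SD, n = 5 each). The fitted log2 fold change, ROBO1pos minus ROBO1neg here and throughout, was -7.41 (SE 0.81), and -8.30 without ROBO1pos replicate 3, the library with most SAA1 in its population.

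SAA2, the second acute phase form, was at 0, 0, 0.581, 0.323 and 0.247 CPM in ROBO1pos replicates 1 to 5, against 7.65, 12.9, 81.3, 90.6 and 55.8 CPM in ROBO1neg replicates 1 to 5. The populations did not overlap, and libraries 1 and 2 were again lowest in both. A count of 0 allows up to 3 counts, which was between 0.111 and 0.123 CPM in ROBO1pos. SAA2 averaged 0.230 ± 0.244 CPM in ROBO1pos and 49.6 ± 38.2 CPM in ROBO1neg. Its fitted log2 fold change was -7.75 (SE 0.94), and -8.45 without ROBO1pos replicate 3.

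LCN2, the siderophore-binding lipocalin, was at 0.387, 0.148, 1.74, 1.25 and 0.493 CPM in ROBO1pos replicates 1 to 5, against 32.4, 57.7, 222, 241 and 162 CPM in ROBO1neg replicates 1 to 5. Its libraries stood in the same order as those of SAA1 in either population. LCN2 averaged 0.805 ± 0.668 CPM in ROBO1pos and 143 ± 94.5 CPM in ROBO1neg, and its fitted log2 fold change was -7.48 (SE 0.71).

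SAA4, the constitutive form, was rare. It had 0, 0, 1, 2 and 0 counts in ROBO1pos replicates 1 to 5, against 5, 8, 52, 68 and 41 counts in ROBO1neg replicates 1 to 5, and did not pass the filter on low counts. The ROBO1neg libraries stood in the same order as for SAA2, and each held between 36 and 39.0 SAA2 counts per SAA4 count. HP had 0 counts in all 10 libraries, which allows up to 0.123 CPM in ROBO1pos and 0.130 CPM in ROBO1neg, so haptoglobin transcripts were not detectable at this depth.

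**Figure D1:**
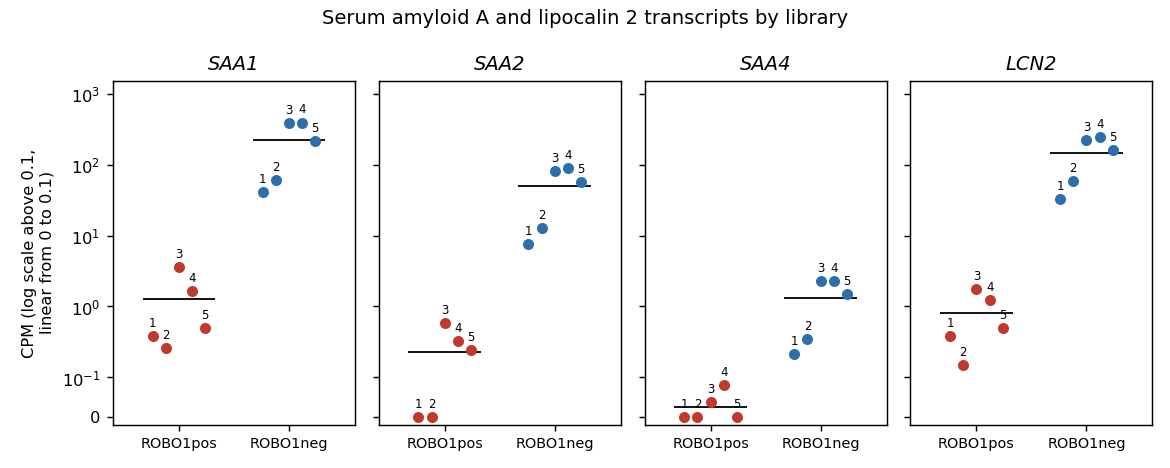
CPM of SAA1, SAA2, SAA4 and LCN2 by library (vertical axis logarithmic above 0.1 and linear below it), ROBO1pos left and ROBO1neg right, with replicate numbers beside the points and lines at the means. For each gene all 5 ROBO1pos points lie below all 5 ROBO1neg points, and the ROBO1neg points numbered 1 and 2 lie below those numbered 3, 4 and 5.

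Summed over the libraries and scaled to their normalized totals, SAA1 counts were 176 times as frequent in ROBO1neg as in ROBO1pos (exact 95% interval 151 to 207), SAA2 counts 228 times (158 to 340) and LCN2 counts 185 times (153 to 227). For SAA4, with 3 counts in ROBO1pos and 174 in ROBO1neg, the ratio was 58.4 (19.7 to 286), and 141 without ROBO1pos replicate 4. These intervals cover counting error only, and they treat reads as independent, which reads without molecular identifiers are not. They leave out the spread between libraries, which for SAA1 in ROBO1neg was 9.50-fold from lowest to highest. They are therefore too narrow for the difference between the populations. In all, 4 of the 5 genes were lower in ROBO1pos with no overlap of libraries, as were 21.8% of all genes listed. Of the 3 genes that passed the filter, each lay past a 32-fold difference, as did 1.79% of the 14932 genes tested in the direction of ROBO1neg. Since the genes were chosen with this comparison known, these shares are no test of them. Across the tested genes 82.0% were called in either direction, 41.6% higher and 40.4% lower in ROBO1pos, at an adjusted p under 0.05 by edgeR's quasi-likelihood test, and the median log2 fold change was 0.019. The sorting receptor ROBO1 was at 429.5 ± 26.7 CPM in ROBO1pos and 7.25 ± 1.47 CPM in ROBO1neg, which checks the labels.

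Levels per kilobase of annotated exon set the genes side by side, but they depend on the length used. The exons of all annotated transcripts of a gene were pooled, which gave 796 bases for SAA1, 1042 for LCN2, 2227 for SAA2 and 727 for SAA4. The long annotation of SAA2 lowers its value. On this scale SAA1 was at 1.62 CPM in ROBO1pos and 274.7 CPM in ROBO1neg, and LCN2 at 0.773 CPM in ROBO1pos and 137 CPM in ROBO1neg. SAA2 was at 0.103 CPM per kilobase in ROBO1pos and 22.3 CPM in ROBO1neg, and SAA4 at 0.0329 CPM in ROBO1pos and 1.82 CPM in ROBO1neg. The order of mean level was thus SAA1, LCN2, SAA2, SAA4 and HP in either population. The ranges over libraries overlapped between SAA1 and LCN2 and between LCN2 and SAA2. Within a library the order per kilobase was the same throughout: SAA1 lay above LCN2, and LCN2 above SAA2, in 5 of 5 ROBO1pos and 5 of 5 ROBO1neg libraries. In ROBO1pos replicates 1 and 5 the counts of SAA1 and LCN2 were equal, so the exon lengths alone set their order there. SAA2 lay above SAA4 in 3 of 5 ROBO1pos libraries, both being at 0 in the others, and in 5 of 5 ROBO1neg libraries. SAA1 and LCN2, neighbours in that order, had counts close to each other within a library, with between 1 and 2.09 SAA1 counts per LCN2 count in ROBO1pos and between 1.04 and 1.74 in ROBO1neg. SAA1 counts exceeded SAA2 counts between 2 and 6.27 times in the 3 ROBO1pos libraries with SAA2 counts and between 3.87 and 5.38 times in ROBO1neg. In ROBO1neg, and for SAA1 over LCN2 in ROBO1pos, ratios within a library therefore moved much less than the levels themselves. In ROBO1pos the ratio of SAA1 to SAA2 did not move less than SAA2. There SAA2 was between 0.247 and 0.581 CPM in these libraries, from 6 to 15 counts.

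The spread of these genes among the ROBO1neg libraries is a measure that the choice of genes did not use. SAA2, SAA1 and LCN2 were among the most variable genes of that population, with SDs of log2 CPM of 1.63, 1.52 and 1.28 over the 5 libraries. They ranked 3, 4 and 8 of the 10107 genes with at least 10 CPM in ROBO1neg, whose median SD was 0.083, and 0.0693% of those genes exceeded LCN2. The highest ROBO1neg library had 11.8 times the SAA2, 9.50 times the SAA1 and 7.44 times the LCN2 of the lowest. With ROBO1neg replicate 1 left out the SDs were 1.30, 1.27 and 0.95. Within ROBO1pos, where counts were few, the SDs were 1.41 for SAA2, 1.45 for SAA1 and 1.21 for LCN2.

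**Figure D2:**
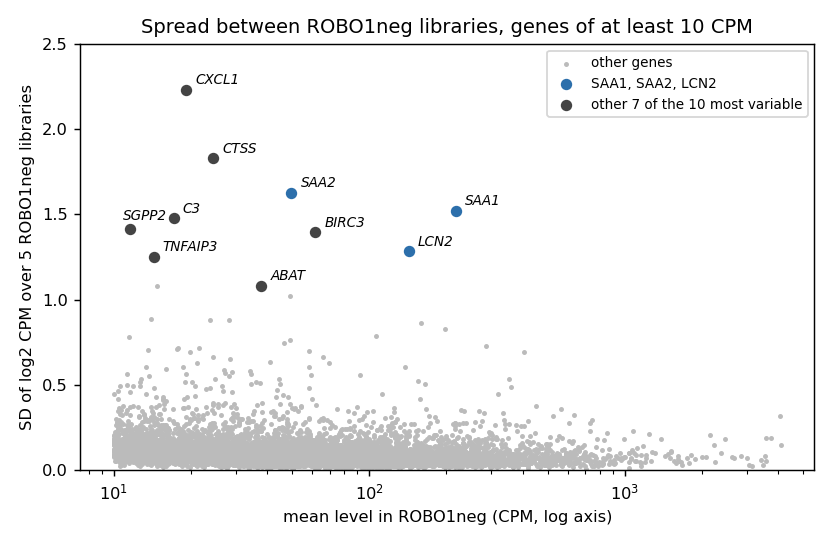
SD of log2 CPM over the 5 ROBO1neg libraries against the mean CPM in ROBO1neg (logarithmic axis), 1 point per gene of at least 10 CPM. SAA1, SAA2 and LCN2 and the other 7 of the 10 most variable genes stand far above the median SD of 0.083.

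The other genes of the 10 most variable were named after their values were seen. CXCL1, a neutrophil-attracting chemokine, had the widest spread, at 2.04, 1.64, 41.3, 42.3 and 8.94 CPM in ROBO1neg replicates 1 to 5. It was low in the libraries in which SAA1 was low and high in the same libraries as SAA1, with an SD of 2.23. C3, the central complement component, had an SD of 1.48 and was the only gene of these 7 in the exact order of SAA1 over the ROBO1neg libraries, replicate 1 lowest and then 2, 5, 3 and 4. Of all tested genes 183 had that order, or 1.23%, SAA1, SAA2 and LCN2 among them. CTSS (cathepsin S), BIRC3 (an inhibitor of apoptosis induced by NF-kB), TNFAIP3 (the NF-kB inhibitor A20), SGPP2 (a sphingosine phosphatase) and ABAT (a GABA transaminase) completed the 10, with SDs between 1.08 and 1.83. Genes had to reach 10 CPM in ROBO1neg to enter this ranking, which favours genes that are lower in ROBO1pos, so no count of calls is drawn from it. SGPP2 had overlapping populations, at 10.5 ± 2.04 CPM in ROBO1pos and 11.6 ± 8.87 CPM in ROBO1neg.

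The summed level of myeloid markers was also lowest in ROBO1neg replicates 1 and 2. ITGAM, an integrin chain of myeloid cells, had 6, 8, 42, 32 and 21 counts in ROBO1neg replicates 1 to 5, lowest in the libraries in which SAA1 and LCN2 were lowest. The 20 neutrophil and myeloid markers summed to 2.04, 2.07, 4.04, 3.17 and 3.10 CPM in the same libraries, while PTPRC, the common leukocyte antigen, had 0 counts in all of them. ITGAM is itself part of that sum. CD68, the highest of the 20, moved far less, at 1.23, 1.55, 1.65, 1.57 and 1.69 CPM in these libraries. The part of such cells in the spread was not tested.

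The genes whose profile over all 10 libraries was nearest to SAA1, by the root mean square difference of log2 CPM after centring each gene, were LCN2 at 0.33, SAA2 at 0.47 and TNFAIP2 at 0.79. TNFAIP2 was also the nearest gene outside the set for SAA2, at 0.91, and for LCN2, at 0.63. TNFAIP2, a gene induced by tumour necrosis factor, was at 1.51, 1.11, 3.18, 2.47 and 1.03 CPM in ROBO1pos replicates 1 to 5, against 85.0, 107, 283, 297 and 221 CPM in ROBO1neg replicates 1 to 5. Like SAA1 it was lowest in ROBO1neg replicate 1 and highest in ROBO1neg replicate 4, and its log2 fold change was -6.74 (SE 0.45). The measure takes in the difference between the populations, which many genes share, so that difference is given for TNFAIP2 without a test.

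A gene could also differ steeply between the populations without this spread. LIF, a cytokine that signals through gp130 like interleukin 6, was at 1.51, 1.82, 2.44, 2.22 and 4.52 CPM in ROBO1pos replicates 1 to 5, against 176, 152, 150.5, 146 and 144 CPM in ROBO1neg replicates 1 to 5. Its highest ROBO1neg library was replicate 1, the lowest for SAA1, and its SD of log2 CPM there was 0.12. SAA1 and LCN2 were higher in the libraries numbered 3 and 4 than in those numbered 1, 2 and 5 in both populations. The labels do not say that a number marks a shared culture or day.

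**Figure D3:**
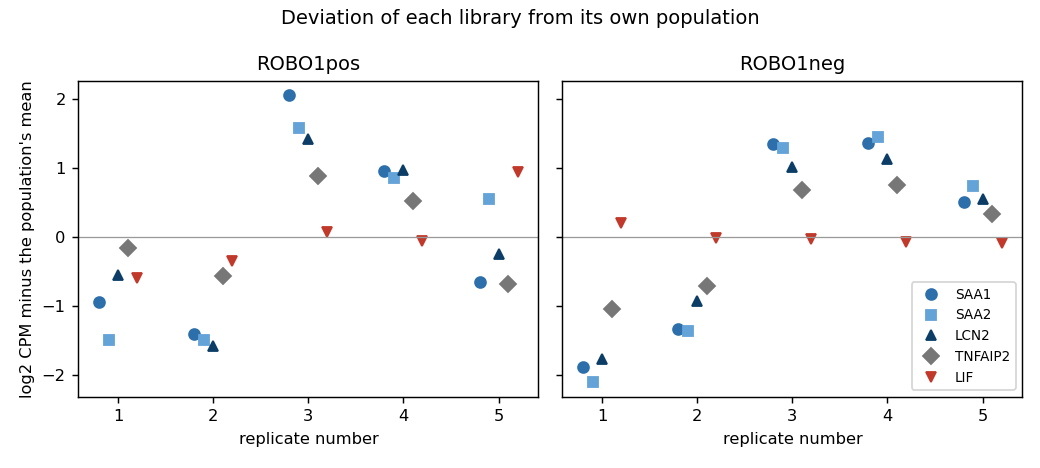
Deviation of log2 CPM from the mean of the library's own population, by replicate number, for SAA1, SAA2, LCN2, TNFAIP2 and LIF in ROBO1pos (left) and ROBO1neg (right). The first 4 genes lie below 0 in the libraries numbered 1 and 2 and above 0 in those numbered 3 and 4 in both panels, whereas LIF stays near 0 in ROBO1neg.

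The few SAA1 and LCN2 reads in ROBO1pos placed both genes among those with the lowest ROBO1pos share of the ROBO1neg level. Among genes of at least 100 CPM in ROBO1neg, the 8 with the lowest ROBO1pos share had between 0.425% and 0.652% of it, and LCN2 at 0.563% and SAA1 at 0.589% were among them. SAA2, below that level, was at 0.464%. The other 6 genes were PSG5, GNG11, ANKRD1, WNT5A, TGM2 and IGFBP7. SAA1, LCN2 and these 6 genes were all taken for their low shares, so that the closeness of their means follows from that choice. By ROBO1pos library the share of the ROBO1neg mean was 0.119% to 1.67% for SAA1 and 0.104% to 1.22% for LCN2. For the other 6 genes it lay between 0.178% (PSG5) and 0.985% (IGFBP7). PSG5 has near-identical relatives that make its counts uncertain. How many of the ROBO1pos reads came from ROBO1neg cells in the sort was not tested.

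The relatives of these genes were mostly below the filter on low counts. Of 22 further SAA, haptoglobin and lipocalin family genes, 5 passed the filter, 2 were higher and 2 were lower in ROBO1pos, and their median log2 fold change was 0.0042 against 0.019 over all genes. The shares called over all tested genes were 41.6% higher and 40.4% lower. LCN10, a lipocalin of unclear function, was the steepest at 0.107 ± 0.0805 CPM in ROBO1pos and 3.30 ± 0.472 CPM in ROBO1neg (log2 fold change -4.85 ± 0.31 SE, adjusted p by edgeR 3.33e-09). LCN12 was higher in ROBO1pos, at 5.39 ± 0.755 CPM, against 2.91 ± 0.771 CPM in ROBO1neg (edgeR adjusted p = 0.000204). HPR, the haptoglobin-related gene beside HP, and the pseudogene SAA3P had 0 counts in all libraries.

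Other plasma proteins listed for the acute phase, not all of which rise in it, moved in both directions. Of 34 genes, 12 passed the filter, 5 were higher and 7 lower in ROBO1pos, with a median log2 fold change of -1.99. Among all tested genes 41.6% were called higher and 40.4% lower, so these counts do not set the list apart. ITIH3, a heavy chain of the inter-alpha-trypsin inhibitors, had 0.0306 ± 0.0323 CPM in ROBO1pos and 5.26 ± 1.80 CPM in ROBO1neg (log2 fold change -7.18 ± 0.43 SE, adjusted p by edgeR 1.62e-09). SERPING1, the C1 inhibitor, was likewise lower in ROBO1pos, at 0.241 ± 0.104 CPM, against 2.87 ± 0.145 CPM in ROBO1neg (log2 fold change -3.54, edgeR adjusted p = 1.98e-09). SERPINA1 and SERPINA3, the protease inhibitors antitrypsin and antichymotrypsin, and C3 were lower too, with log2 fold changes of -5.86, -6.18 and -5.66 (edgeR adjusted p between 1.40e-08 and 9.19e-06). In the other direction, A2M, the protease inhibitor alpha-2-macroglobulin, was at 69.5 ± 25.2 CPM in ROBO1pos and 1.04 ± 0.327 CPM in ROBO1neg (log2 fold change 6.04 ± 0.32 SE, adjusted p by edgeR 4.59e-10). ALB (albumin), a protein that falls in the acute phase, was at 5.28 ± 1.06 CPM in ROBO1pos and 0.147 ± 0.0581 CPM in ROBO1neg (log2 fold change 5.16, edgeR adjusted p = 1.72e-10). FGA, a fibrinogen chain, was also higher, at 1.14 CPM in ROBO1pos and 0.0158 CPM in ROBO1neg (log2 fold change 5.80, edgeR adjusted p = 6.91e-09). CRP, the textbook acute phase reactant, had 0 counts in all libraries.

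**Figure D4:**
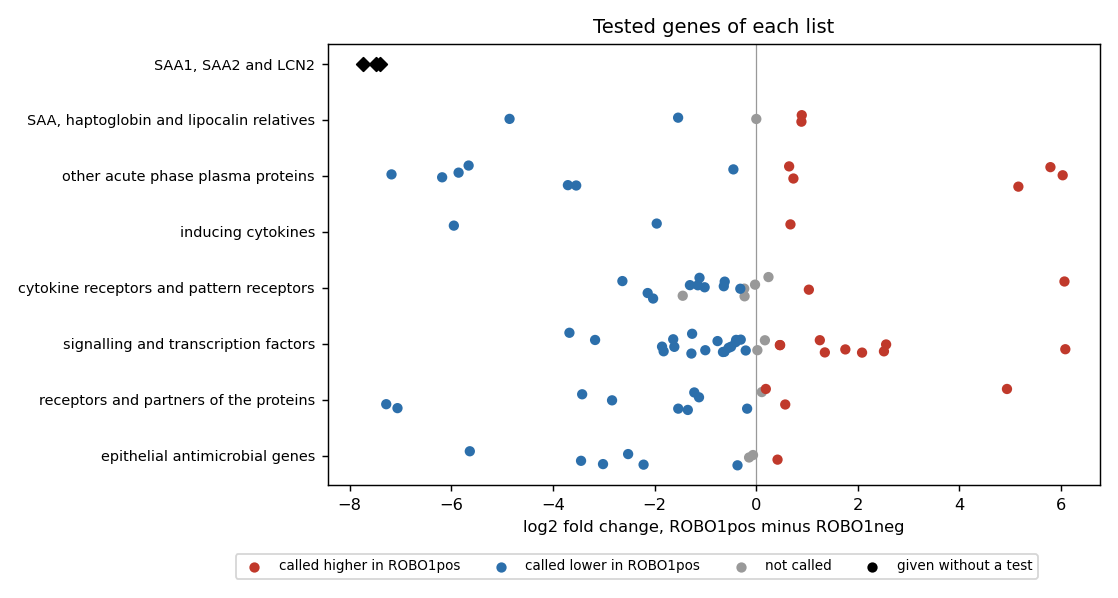
Log2 fold changes, ROBO1pos minus ROBO1neg, of the tested genes of 7 lists, 1 point per gene, coloured by the call of edgeR's test, with SAA1, SAA2 and LCN2 (black, not tested here) in the top row. The 3 black points, for genes chosen with this comparison known, lie between -7.75 and -7.41, left of every point in the lists.

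Among cytokines known to induce acute phase genes, few were expressed. Of 18, 3 passed the filter, 1 higher and 2 lower in ROBO1pos. Among all tested genes 41.6% were called higher and 40.4% lower. LIF was lower in ROBO1pos (log2 fold change -5.95 ± 0.17 SE, adjusted p by edgeR 1.06e-12), as was CLCF1, another interleukin 6 family cytokine, at 2.52 ± 0.413 CPM in ROBO1pos and 9.76 ± 0.649 CPM in ROBO1neg (edgeR adjusted p = 1.67e-09). IL11, of the same family, was higher in ROBO1pos, at 6.84 ± 0.958 CPM, against 4.27 ± 0.321 CPM in ROBO1neg (edgeR adjusted p = 7.07e-05). IL1A, TNF, IL17A, IL22 and IL36B had 0 counts in all libraries, and IL6 and IL1B had 0 in all ROBO1neg libraries, so none was detectable there at this depth.

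Of 20 receptors and adaptors for these cytokines and for microbial products, 17 passed the filter. In ROBO1pos 10 were called lower and 2 higher, with a median log2 fold change of -0.64. Among all tested genes 40.4% were called lower and 41.6% higher. IL6ST, the signalling chain gp130 shared by the interleukin 6 family, was at 47.9 ± 5.17 CPM in ROBO1pos and 297 ± 42.2 CPM in ROBO1neg (log2 fold change -2.63 ± 0.10 SE, adjusted p by edgeR 1.56e-11). MYD88, the adaptor of interleukin 1 and Toll-like receptors, was at 25.3 ± 2.40 CPM in ROBO1pos and 56.1 ± 1.14 CPM in ROBO1neg (log2 fold change -1.15, edgeR adjusted p = 2.92e-10). IL22RA1, the epithelial receptor chain for interleukin 22, was lower as well, at 1.52 ± 0.289 CPM in ROBO1pos and 6.67 ± 0.824 CPM in ROBO1neg (edgeR adjusted p = 6.29e-09). IL1R2, a decoy receptor that takes up interleukin 1 without signalling, ran the other way, at 5.63 ± 0.893 CPM in ROBO1pos and 0.0799 ± 0.0405 CPM in ROBO1neg (log2 fold change 6.07 ± 0.25 SE, adjusted p by edgeR 2.71e-11). Its signalling counterpart IL1R1 was below the filter, at 0.297 CPM in ROBO1pos and 0.206 CPM in ROBO1neg.

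The signalling proteins and transcription factors known to act on these promoters moved in both directions, also within a family. Of 30 genes, 29 passed the filter, 9 were higher and 18 lower in ROBO1pos, and the median log2 fold change was -0.40. Over all tested genes 41.6% were called higher and 40.4% lower. SOCS3, the feedback inhibitor that STAT3 induces, was the most certain of those lower in ROBO1pos, at 1.43 ± 0.372 CPM, against 18.2 ± 2.64 CPM in ROBO1neg (log2 fold change -3.68 ± 0.16 SE, adjusted p by edgeR 4.68e-11). The NF-kB genes NFKB1, NFKB2, RELA and RELB and the IkB family genes NFKBIA, NFKBIZ and BCL3 were all called lower in ROBO1pos, with log2 fold changes between -3.17 (BCL3) and -0.30 (RELA), whereas REL was called higher. NFKBIZ, which in mouse is needed for Lcn2 induction, was at 3.70 ± 0.228 CPM in ROBO1pos and 11.4 ± 6.18 CPM in ROBO1neg, and it was among the 20 most variable genes in ROBO1neg. CEBPB, an inflammatory C/EBP factor, was at 14.4 ± 3.52 CPM in ROBO1pos and 28.8 ± 5.02 CPM in ROBO1neg, and CEBPD, another, at 3.24 ± 0.548 CPM in ROBO1pos and 11.4 ± 2.03 CPM in ROBO1neg, both called lower in ROBO1pos. CEBPA, the C/EBP factor of differentiated cells, was instead at 27.0 ± 1.16 CPM in ROBO1pos and 6.37 ± 0.446 CPM in ROBO1neg (log2 fold change 2.09 ± 0.07 SE, adjusted p by edgeR 2.37e-12). HNF4A, a nuclear receptor of liver and gut epithelium, was at 130.2 ± 17.7 CPM in ROBO1pos and 22.04 ± 1.70 CPM in ROBO1neg (log2 fold change 2.56 ± 0.09 SE, adjusted p by edgeR 5.84e-12).

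The LCN2 promoter held a match to the NF-kB motif. RefSeq's GRCh38.p14 promoter table had 2 of the 5 genes, LCN2 and SAA4. The 250 bases before the start of LCN2 (chr9:128149203-128149452, plus strand) are shown with the motif in capitals.
LCN2: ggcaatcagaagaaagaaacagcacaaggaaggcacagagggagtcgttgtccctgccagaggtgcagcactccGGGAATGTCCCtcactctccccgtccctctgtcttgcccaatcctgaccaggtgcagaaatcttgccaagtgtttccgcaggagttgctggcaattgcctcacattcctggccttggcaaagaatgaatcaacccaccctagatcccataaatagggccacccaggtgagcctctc

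The capitals are overlapping matches to GGGNNNNNCC, searched on both strands and starting 176 and 175 bases before the gene. This short motif was in 54.4% of 35116 promoters of the same length, and a match is only a match of letters. A C/EBP motif, TTNNGNAA, which 33.2% of promoters held, matched 1 place in LCN2 and 6 in SAA4. A STAT motif, TTCNNNGAA, which 6.57% held, was in neither, and the NF-kB letters were not in the SAA4 window.

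Receptors and partners of the proteins were measured as well. Of 19 genes, 13 passed the filter, 3 were higher and 9 lower in ROBO1pos, with a median log2 fold change of -1.22. The shares over all tested genes were 41.6% higher and 40.4% lower. SLC22A17, a lipocalin 2 receptor, was lower with its ligand, at 0.806 ± 0.417 CPM in ROBO1pos and 8.71 ± 1.48 CPM in ROBO1neg (log2 fold change -3.42 ± 0.25 SE, adjusted p by edgeR 1.47e-08). APOL1, an apolipoprotein that shares its trypanosome-killing particle with haptoglobin-related protein, was at 0.0860 ± 0.0635 CPM in ROBO1pos and 14.1 ± 2.30 CPM in ROBO1neg (log2 fold change -7.28 ± 0.24 SE, adjusted p by edgeR 3.34e-12). ITGB2, the leukocyte integrin chain, had 2 counts over all ROBO1pos libraries, both in replicate 3, and 351 over the ROBO1neg libraries (edgeR adjusted p = 3.84e-08). CD36, a scavenger receptor that binds serum amyloid A, was higher in ROBO1pos, at 2.07 ± 1.12 CPM, against 0.0605 ± 0.0402 CPM in ROBO1neg (log2 fold change 4.94 ± 0.56 SE, adjusted p by edgeR 1.46e-06). The formyl peptide receptors FPR1 and FPR2, through which serum amyloid A acts on leukocytes, had 0 counts in all ROBO1pos libraries and means of 0.0068 and 0.0072 CPM in ROBO1neg.

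Epithelial antimicrobial and chemokine genes that are often induced with LCN2 were mostly below the filter on low counts. Of 29 genes, 9 passed the filter, 1 was higher and 6 were lower in ROBO1pos, and the median log2 fold change was -2.22. Among all tested genes 41.6% were called higher and 40.4% lower. NOS2, the inducible nitric oxide synthase, was at 0.670 ± 0.188 CPM in ROBO1pos and 5.45 ± 1.05 CPM in ROBO1neg (log2 fold change -3.01 ± 0.20 SE, adjusted p by edgeR 5.80e-09). CXCL1 was at 0.384 ± 0.298 CPM in ROBO1pos and 19.3 ± 20.8 CPM in ROBO1neg (log2 fold change -5.64 ± 1.05 SE, adjusted p by edgeR 0.000188). Over the ROBO1neg libraries CXCL8 ranged from 0.861 to 14.3 CPM and CXCL3 from 0.775 to 10.3 CPM, both called lower in ROBO1pos. The populations overlapped for both, as ROBO1pos libraries reached 0.904 CPM for CXCL8 and 1.36 CPM for CXCL3. CXCL2, which was not tested, ranged from 0.345 to 8.16 CPM in ROBO1neg. CXCL5 and CCL20, also not tested, reached at most 1.30 and 0.546 CPM in ROBO1neg. FUT2, a fucosyltransferase of the gut surface, was also lower, at 0.423 ± 0.169 CPM in ROBO1pos and 1.97 ± 0.730 CPM in ROBO1neg (edgeR adjusted p = 1.26e-05). LYZ (lysozyme) was higher in ROBO1pos, at 2.25 ± 0.374 CPM, against 1.69 ± 0.323 CPM in ROBO1neg (edgeR adjusted p = 0.0324), a call that was lost when ROBO1pos replicate 4 was left out (adjusted p = 0.104) or any of ROBO1neg replicates 3, 4 and 5 (0.0534, 0.0853 and 0.0854). DESeq2 did not call it either (adjusted p = 0.0545). DEFB1, DEFB4A, S100A8, REG1B, REG3G, REG4 and BPIFB1 had 0 counts in all libraries.

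Markers of other cells that make these proteins were low. Of 20 neutrophil and myeloid markers, 8 had 0 counts in all libraries, MPO, ELANE, PRTN3, AZU1 and CSF3R among them. The summed level of the 20 was between 0.815 and 1.52 CPM in ROBO1pos and between 2.04 and 4.04 CPM in ROBO1neg, and PTPRC had between 0 and 0.123 CPM in ROBO1pos. The highest members were CD68, at 0.886 ± 0.320 CPM in ROBO1pos and 1.54 ± 0.182 CPM in ROBO1neg (edgeR adjusted p = 0.00529), and ITGAM, at 0.0310 ± 0.0424 CPM in ROBO1pos and 0.854 ± 0.637 CPM in ROBO1neg, which was not tested. The summed level of 16 hepatocyte markers was between 7.15 and 10.6 CPM in ROBO1pos and between 1.98 and 2.42 CPM in ROBO1neg. ALB alone, at 5.28 CPM, was the largest part of the ROBO1pos sum. In all, 3 of 3 tested members (ALB, CPS1 and CYP2E1) were called higher in ROBO1pos, as were 41.6% of all tested genes. Members below the filter differed in direction. APOH was at 0.299 CPM in ROBO1pos and 0.0068 CPM in ROBO1neg, but SERPINC1 at 0.125 CPM in ROBO1pos and 0.222 CPM in ROBO1neg. APOB, APOC3 and TTR had 0 counts throughout. CPS1, a urea cycle enzyme, was at 1.96 ± 0.488 CPM in ROBO1pos and 1.20 ± 0.248 CPM in ROBO1neg (edgeR adjusted p = 0.00544). The 9 fibroblast markers summed to between 10.4 and 14.1 CPM in ROBO1pos and between 14.02 and 22.7 CPM in ROBO1neg, with 2 of 4 tested members higher (LUM and COL1A2), 2 lower (COL1A1 and PDGFRB) and COL3A1 at 0 in all libraries. Shares over all tested genes were 41.6% higher and 40.4% lower. The part of other cells in the levels of the SAA genes and LCN2 was not tested.

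Both populations had the markers of an epithelial line. The 13 intestinal epithelial markers summed to between 5809.5 and 7073 CPM in ROBO1pos and between 8015 and 10523 CPM in ROBO1neg, mostly keratins 8, 18 and 19, with 5 higher and 5 lower of 12 tested. Over all tested genes 41.6% were called higher and 40.4% lower. EPCAM, the epithelial adhesion molecule, was at 679.9 ± 22.9 CPM in ROBO1pos and 303 ± 12.8 CPM in ROBO1neg, and KRT20 had 0 counts in all libraries. VIL1 (villin) was at 503 ± 23.3 CPM in ROBO1pos and 27.7 ± 3.14 CPM in ROBO1neg (log2 fold change 4.18, edgeR adjusted p = 1.43e-14). CDH17, the intestinal cadherin, was at 6.94 ± 3.38 CPM in ROBO1pos and 0.127 ± 0.0813 CPM in ROBO1neg (edgeR adjusted p = 8.10e-08), and KRT18 at 2343 ± 231 CPM in ROBO1pos and 4095 ± 424 CPM in ROBO1neg (edgeR adjusted p = 2.32e-07).

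Genes beside the SAA cluster did not share its difference. The tested genes nearest to it were SAAL1 (log2 fold change 0.43) on the side of SAA4 and HPS5 (-1.02) on the side of SAA1. Over the 39 tested genes around SAA1, up to 20 on each side and without SAA2, the median was 0.28, with values between -1.92 and 8.38, and 22 were called higher and 14 lower in ROBO1pos. Around LCN2 the nearest genes were PTGES2-AS1 (-1.58), an antisense gene whose reads may not be separated from those of PTGES2, and the gene listed as C9orf16 (-1.36). The 40 tested genes there had a median of -0.49, with values between -2.45 and 1.04, and 35 were called lower and 4 higher. Over all tested genes the shares were 40.4% lower and 41.6% higher. With the median of all neighbours removed, the log2 fold change was -7.66 for SAA1, -8.00 for SAA2 and -6.99 for LCN2. Here SAA2 was kept among the neighbours of SAA1, and SAA1 among those of SAA2. Around HP, which was not detected, the nearest tested genes DHODH (0.38) and TXNL4B (0.54) were expressed in both populations and the median of 40 genes was 0.12.

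**Figure D5:**
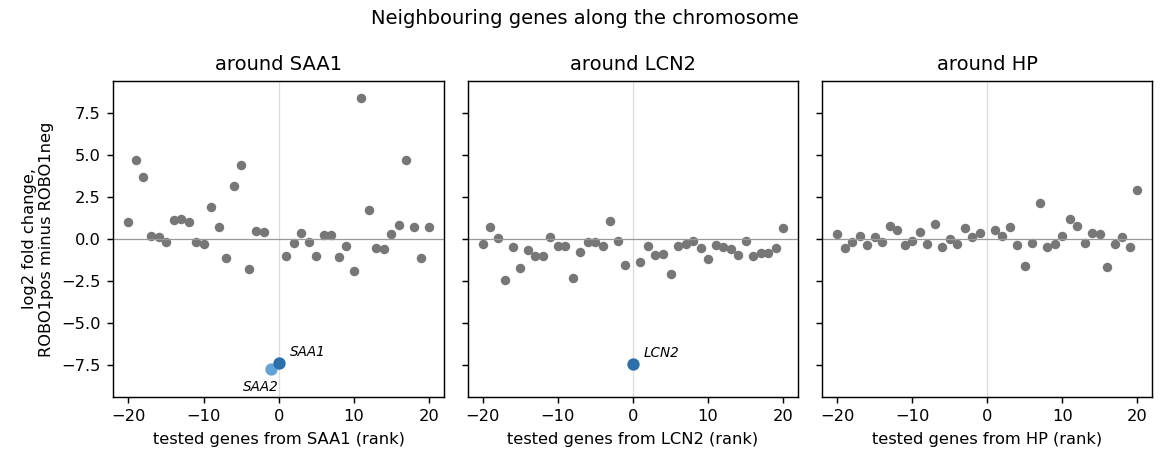
Log2 fold change, ROBO1pos minus ROBO1neg, of the tested genes up to 20 ranks to either side of SAA1, LCN2 and HP, against rank along the chromosome. SAA1, SAA2 and LCN2 lie below -7, while the other genes around SAA1 lie between -1.92 and 8.38 and those around LCN2 between -2.45 and 1.04.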

How the data were processed

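RNA-seq was measured in 5 ROBO1pos and 5 ROBO1neg libraries of SW480 cells, grouped by their labels. Each library has a file of raw counts per gene, which the authors deposited without normalization. Libraries were made from polyadenylated RNA with a stranded kit, per the labels' protocols. The submitters' processing notes name GRCh38, DESeq2 1.24.0, bcl2fastq 0.11.7, FastQC, SAMtools 1.9 and STAR 2.6.0c. Read length, annotation, counting tool and strand setting were not given in the sources used here. Entries that name no gene were left out: reads with no feature were a mean of 15.8% of all reads in ROBO1pos and 14.6% in ROBO1neg, multiply aligned reads 24.6% in ROBO1pos and 21.2% in ROBO1neg, and ambiguous reads between 0.806% and 0.881% per library. Near-identical genes such as SAA1 and SAA2 can lose reads to these entries.

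The counts were tested in R 4.3.3 with edgeR 4.0.16, which uses limma 3.58.1 (filterByExpr, TMM scaling, quasi-likelihood test with group as the only term, Benjamini-Hochberg over 14932 genes, calls at an adjusted p under 0.05), a test checked on simulated data. CPM are counts over TMM-scaled gene totals, with a prior count of 2 for log2 CPM. The genes, the gene lists, which overlap in part, and the rules were chosen with earlier results of these data known, so no list was tested as a set. Named genes were the 5 genes and ROBO1, up to 4 called genes per list by smallest adjusted p with at least 1 CPM and at most 3 per direction, the 2 highest markers of other cells, the genes most alike in profile and the nearest neighbours. Other genes were named after their values were seen. A gene that the rule takes is not reported here. The p-values reflect the spread among the libraries at hand. No pair of libraries within a population was a duplicate, as their counts differed by between 3.42 and 20.8 times the sampling variance. Replicates 3 and 4 were the closest pair in both populations, at 3.42 in ROBO1neg (next pair 8.58) and 4.11 in ROBO1pos (next pair 6.23). The labels do not say whether these libraries share a culture, so the 5 libraries may not be fully independent. Alternatives were RLE, upper quartile or no scaling, no filter, at least 5 CPM in 5 libraries, DESeq2 1.42.0, limma-voom, leaving out each library, a block on the replicate number and, added after seeing the data, the SD within ROBO1neg under these scalings. Sequences, exon lengths and positions came from GENCODE v29 and RefSeq tables. Of the tested genes, 13663 were placed by symbol, 944 by an older name and 325 not at all.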

Additional observations from a re-analysis of the deposited data

Results flagged for a closer look

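In 7 of 98 groups of 5 libraries checked (49 named genes in each population), 1 library stood apart from the other 4, by a gap that was more than 0.71 of the whole range; chance gives about 1 in 20. SAA1, SAA2, SAA4 and LCN2 were not among them. LIF in ROBO1neg was at 176 CPM in replicate 1, against 144 to 152 CPM in the others (gap 0.739 of the range). IL22RA1 in ROBO1neg was at 8.11 CPM in replicate 5, against 6.03 to 6.52 CPM (0.766). In ROBO1pos replicate 3, APOL1 was at 0.194 CPM, against 0.0371 to 0.0808 CPM (0.721), and ITGB2 at 0.0775 CPM, against 0 in the others (gap 1 of the range), the library in which SAA1 and LCN2 were also highest within ROBO1pos. LYZ in ROBO1pos was at 2.91 CPM in replicate 4, against 1.97 to 2.18 CPM (0.782). In ROBO1pos replicate 5, EPCAM was at 719.7 CPM, against 662 to 675 CPM (0.778), and KRT18 at 2739.8 CPM, against 2139.9 to 2295 CPM (0.742).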

How the results depend on the processing

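The log2 fold changes of SAA1, SAA2 and LCN2 kept their direction under each alternative run and lay between -8.30 and -7.09, -8.45 and -7.41, and -7.99 and -7.20 with 1 library left out; the SAA4 ratio of ROBO1neg over ROBO1pos lay between 46.1 and 141. SGPP2, which was not called, was at -0.15 and changed sign, to 0.26 with limma-voom, to 0.12 with the replicate block, and to 0.14 and 0.18 without ROBO1neg replicates 3 and 4. No other value changed sign, and of the results that answer a comparison 494 values stayed on their side, 12 rose past it or by over 1.5 times and 17 fell short; among single genes 747 stayed and 6 fell short, all of them LYZ. Requiring at least 5 CPM in 5 libraries, which leaves fewer genes to test, gave 0 higher and 0 lower antimicrobial genes, 0 and 0 relatives, 2 and 1 acute phase genes, 0 and 1 fibroblast markers, 0 higher hepatocyte, 2 higher intestinal and 0 lower myeloid markers and 1 higher cytokine receptor. With no filter there were 3 higher and 10 lower antimicrobial genes, 4 higher fibroblast markers, 2 higher inducing cytokines, 1 higher and 3 lower myeloid markers and 5 higher relatives. DESeq2 gave 2 higher (LYZ not among them) and 10 lower antimicrobial genes, 4 higher fibroblast markers, 3 lower myeloid markers and 4 higher relatives; the cause was not tested. Leaving out 1 library gave 0 to 1 higher antimicrobial genes. ITGB2 had a log2 fold change of -7.06, and -9.12 without ROBO1pos replicate 3; LUM had 6.67, and 7.26 without ROBO1neg replicate 2. With limma-voom CTSS was at -5.79 (edgeR -6.42) and CXCL1 at -4.92 (edgeR -5.64), and the SEs were 2.21 for SAA1, 3.32 for SAA2 and 2.02 for LCN2 (edgeR 0.81, 0.94 and 0.71).

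The labels do not tie libraries by number. Libraries of the same number deviated together, with low correlations between 0.062 and 0.169. Yet 8 of 10 were nearest to their own number, out of 5 numbers. For want of a label the main test left the numbers out, and whether they mark pairs was not settled. With the replicate block the log2 fold changes were -7.42 for SAA1 (SE 0.17), -7.73 for SAA2 (SE 0.16) and -7.46 for LCN2 (SE 0.14), and 0 antimicrobial genes were higher (LYZ, edgeR adjusted p 0.0548). Without the block these SEs were 0.81, 0.94 and 0.71. Depth limits SAA4 and the ROBO1pos levels, which rest on 3 to 164 counts per gene, and HP, which was not detected.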
